A study of Mus musculus with 8 samples.

Results

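Tuft cells sense luminal signals in the lining of the gut and are few in number. The genes described here are 9 transcription factor genes that pattern the gut along its length, or belong to families that do: Hoxb6, Hoxb7, Hoxb8, Hoxb9, Osr2, Onecut2, Gata4, Gata6 and Pdx1. They were taken by name from the deposited table and are 9 of 53655 gene symbols in it. RNA had been sequenced from epithelial cells of the mouse small intestine sorted as CD45-negative, EPCAM-positive and positive for a red Il25 reporter, and then divided by a green Chat reporter. Chat encodes the enzyme that makes acetylcholine. Cells without green signal (Chat-neg) and with it (Chat-pos) gave 4 libraries each, so that the sort compares tuft cells with and without an active Chat reporter. All libraries share the genotype Il25-RFP/+;Chat-GFP(Tg+), and all animals were naïve. The Chat reporter is a transgene and the Il25 reporter is carried on 1 allele. The labels used here give no age, and they do not say which stretch of the small intestine or which animals each library came from. What the p-values measure is thus the spread between libraries, part of which may be technical.

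Hox genes lie in clusters, and the order of the genes in a cluster follows the order of their expression along the head-to-tail axis of the embryo. Genes at the Hoxb9 end of the Hoxb cluster are expressed farther toward the tail than those at the Hoxb1 end. In the gut, Pdx1 marks the duodenum and pancreas, and Gata4 is expressed in the proximal and middle small intestine but not in the distal ileum, where its absence permits genes of bile acid uptake. Gata6 is expressed along the whole small intestine. Onecut2 is a CUT-homeobox factor that is high in the mouse duodenum, and Osr2 is an odd-skipped zinc-finger factor known from limb and palate development.

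The 4 Hoxb members sit next to each other on the plus strand of chromosome 11 (GRCm38, GENCODE M21), in the order Hoxb9 (chr11:96271457-96276595), Hoxb8 (chr11:96281905-96285315), Hoxb7 (chr11:96286623-96290162) and Hoxb6 (chr11:96292476-96301569). Each is a coding gene whose exons overlap no other annotated gene. Their homeoboxes, the 180 coding bases for the DNA-binding homeodomain, are shown because the genes differ in their counts while these stretches are alike. The sequences are from the GENCODE M21 transcripts, 5′ to 3′ on the plus strand, and the 18 bases in capitals encode the conserved core of the third helix, which contacts DNA. Hoxb9 is at chr11:96274659-96274838, Hoxb8 at chr11:96284174-96284353, Hoxb7 at chr11:96289385-96289564 and Hoxb6 at chr11:96300689-96300868.
Hoxb9: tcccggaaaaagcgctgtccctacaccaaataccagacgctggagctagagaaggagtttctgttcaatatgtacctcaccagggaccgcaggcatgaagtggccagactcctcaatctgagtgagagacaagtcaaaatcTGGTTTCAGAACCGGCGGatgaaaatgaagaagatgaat
Hoxb8: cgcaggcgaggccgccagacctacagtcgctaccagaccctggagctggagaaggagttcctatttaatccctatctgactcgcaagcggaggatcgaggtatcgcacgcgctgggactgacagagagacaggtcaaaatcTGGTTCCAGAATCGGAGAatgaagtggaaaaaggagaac
Hoxb7: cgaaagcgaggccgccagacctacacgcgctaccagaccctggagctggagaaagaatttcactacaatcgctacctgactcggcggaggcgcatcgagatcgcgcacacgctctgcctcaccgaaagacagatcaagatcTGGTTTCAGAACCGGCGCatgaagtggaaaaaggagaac
Hoxb6: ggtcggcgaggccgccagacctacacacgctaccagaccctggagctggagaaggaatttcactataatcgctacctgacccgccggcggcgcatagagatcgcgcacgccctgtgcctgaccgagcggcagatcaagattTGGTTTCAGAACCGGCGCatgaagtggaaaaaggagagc
Hoxb6 and Hoxb7 were identical at 160 of 180 bases (88.9%), Hoxb8 was identical to each of them at 145 (80.6%), and Hoxb9 to the other three at 111 to 116 (61.7% to 64.4%). The longest identical run between any pair was 37 bases, in Hoxb6 and Hoxb7. Reads were 74 bases long, and of all 74-base stretches in the transcripts of the 9 genes, those of Gata6 were the only ones found in another gene. They were 20 of 6425 stretches, shared with 1010001N08Rik, a gene on the opposite strand that overlaps 93 bases of Gata6 exon. Counts of the Hoxb genes thus do not rest on reads that these annotated transcripts would leave ambiguous.

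The libraries differed in depth. Named genes held 87642 to 1176880 counts in the Chat-neg libraries and 1757401 to 2541955 in the Chat-pos libraries, with the shallowest library being Chat-neg replicate 1. Chat was at 325 ± 33.9 CPM (a gene's counts relative to its library's total in named genes, scaled by edgeR's TMM method) in the Chat-pos cells and 112 ± 24.2 CPM in the Chat-neg cells (SD, n = 4 each), in the direction the labels give. Ptprc, which encodes CD45, was present although the sort was for CD45-negative cells, at 266 ± 34.2 CPM in Chat-neg and 551 ± 84.2 CPM in Chat-pos. It was higher in Chat-pos (log2 difference 0.99 ± 0.20, SE, edgeR adjusted p = 0.00313). So was Il25, at 44.3 ± 28.2 and 116 ± 21.6 CPM (1.12 ± 0.26, edgeR adjusted p = 0.00884). Epcam stood at 1870 ± 350 and 2510 ± 185 CPM without overlap and was not called (0.38 ± 0.20, edgeR adjusted p = 0.289). Paneth cell markers, 10 secretory genes of another crypt cell, summed to 58200 and 31900 CPM in Chat-pos replicates 2 and 3, against 616 and 487 CPM in Chat-pos replicates 1 and 4 and 704 to 3440 CPM in Chat-neg. All 9 Paneth markers that could be tested lay above 0 (median log2 difference 4.15). Of these, 4 had an unadjusted p under 0.05, 0 were called by edgeR, 0 by limma-voom and 5 were called higher by DESeq2. The values without Chat-pos replicates 2 and 3 are given beside the results. Tuft markers (12 of 12 measured, led by Sh2d6 and Trpm5) summed to 7870 to 14400 CPM in Chat-neg and 18600 to 19800 CPM in Chat-pos, and 5 of the 12 were higher in Chat-pos. In such bulk samples, fewer cells of a type and less RNA per cell cannot be told apart.

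Hoxb7, Hoxb9 and Osr2 were higher in Chat-pos tuft cells, by 3.52-fold, 5.22-fold and 2.12-fold, and Onecut2 was lower, at 0.537 of its Chat-neg level. Gata4 and Gata6 did not pass the test. These 6 members passed the filter on low counts, and Hoxb6, Hoxb8 and Pdx1, with 6 to 45 counts over all libraries, did not. The filter asks for a minimum level in as many libraries as 1 group holds. Hoxb7 and Hoxb9, with 14 and 9 counts in all Chat-neg libraries together, passed it through the Chat-pos group, where they were higher. That they were tested at all is thus not independent of their direction. Over all 8919 genes tested, 3.62% were called higher and 2.87% lower, 6.49% in all (edgeR's quasi-likelihood test, Benjamini-Hochberg adjusted p under 0.05). The called split depended on scaling, with 323 higher and 256 lower here against 225 and 380 with total count scaling. The groups did not overlap in CPM for Hoxb7, Osr2 and Onecut2, as for 13.9% of all genes tested.

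**Figure D1:**
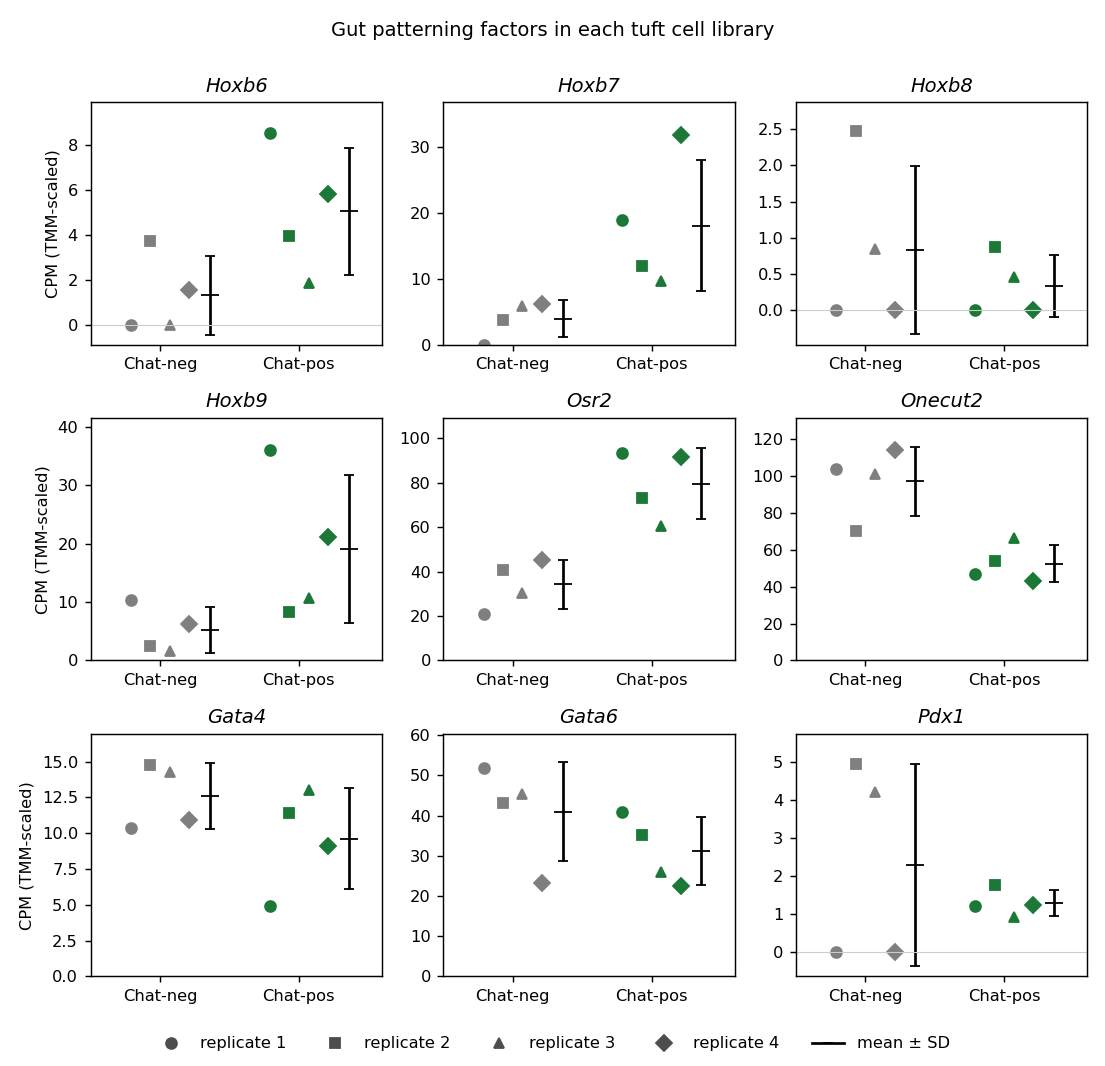
Each panel plots the CPM of 1 factor (y axis, TMM-scaled) in the 4 Chat-neg and 4 Chat-pos libraries, with the mean and SD in black. Hoxb7, Osr2 and Onecut2 separate the groups, while the groups overlap for Hoxb6, Hoxb8, Hoxb9, Gata4, Gata6 and Pdx1.

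Hoxb7 encodes an Antennapedia-type homeodomain protein. In replicate order, it had 0, 3, 7 and 4 counts in the Chat-neg libraries against 31, 27, 21 and 77 in the Chat-pos libraries, which is 0, 3.71, 5.90 and 6.22 CPM against 18.9, 11.9, 9.75 and 31.9 CPM. All Chat-pos libraries lay above all Chat-neg libraries, and Chat-pos replicate 4 was the highest. Chat-neg replicate 1 says little here, since a count of 0 in that library allows up to 31.1 CPM (3 counts, counting error only). The means were 3.96 ± 2.87 CPM in Chat-neg and 18.1 ± 9.99 CPM in Chat-pos (SD, n = 4 each). On the log2 scale the fitted difference was 1.82 ± 0.54 (SE; edgeR adjusted p = 0.0369). When each library was left out in turn, 3 of 8 fits kept the call, those lacking Chat-neg replicate 1 or either of Chat-pos replicates 2 and 3. For the Chat-neg group, it was lost without replicate 2 (edgeR adjusted p = 0.151), replicate 3 (0.0841) or replicate 4 (0.0628), for the Chat-pos group without replicate 1 (0.0584) or replicate 4 (0.177), and the log2 difference stayed between 1.39 and 2.05. It was also lost with the replicate number as a block (1.64, edgeR adjusted p = 0.0806), with total count scaling (0.0543) and with limma-voom (0.106).

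Hoxb9 belongs to the posterior group of Hox genes and lies at the tail-side end of the part of the cluster that was detected. Its counts were 1, 2, 2 and 4 among Chat-neg libraries against 59, 19, 23 and 51 among Chat-pos libraries, or 10.4, 2.47, 1.69 and 6.22 CPM against 36.0, 8.36, 10.7 and 21.1 CPM. The groups overlapped through Chat-neg replicate 1, whose 10.4 CPM is a single read. The means were 5.18 ± 3.98 and 19.1 ± 12.6 CPM, with a log2 difference of 2.38 ± 0.63 (edgeR adjusted p = 0.0188), the largest among the 6 tested members. Without that library the difference was 2.55 (edgeR adjusted p = 0.0222). Leaving out Chat-neg replicate 2 (edgeR adjusted p = 0.104), Chat-neg replicate 3 (0.11) or, in the other group, Chat-pos replicate 1 (0.0891) ended the call, as did limma-voom (0.0965).

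Hoxb6 and Hoxb8 were too sparse for the filtered fit. Hoxb6, whose protein is a close relative of that of Hoxb7, had 0, 3, 0 and 1 counts without the Chat reporter and 14, 9, 4 and 14 with it. Its means were 1.31 ± 1.75 and 5.04 ± 2.84 CPM, and without the filter its log2 difference was 1.81 ± 0.96 (edgeR adjusted p = 0.329). Chat-neg replicate 2, at 3.71 CPM, lay above Chat-pos replicate 3, at 1.86 CPM. Hoxb8 had 3 counts in all Chat-neg and 3 in all Chat-pos libraries together (0.828 ± 1.16 and 0.336 ± 0.423 CPM; log2 difference -1.24 ± 1.57 without the filter, edgeR adjusted p = 0.637). Of its 6 counts, 1.71 would be given by the read density on 1435 olfactory and vomeronasal receptor genes, which were taken as silent without a test. That share was 28.5% for Hoxb8 and at most 7.0% for each of the other 8 members. Of the Chat-neg counts alone it was 29.6% for Hoxb8, 16.6% for Hoxb6, 9.65% for Hoxb9, 8.09% for Pdx1, 3.72% for Hoxb7 and 1.22% to 3.56% for Osr2, Onecut2, Gata4 and Gata6.

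Levels per length differed between neighbours in the cluster. Per kilobase of annotated exon, Chat-pos cells had 7.4 ± 4.9 CPM of Hoxb9, 0.128 ± 0.161 CPM of Hoxb8, 11.7 ± 6.47 CPM of Hoxb7 and 2.57 ± 1.45 CPM of Hoxb6 (SD, n = 4). Hoxb8 lies between Hoxb9 and Hoxb7 and was below both in all 4 Chat-pos libraries. Hoxb5, the next gene, was at 1.13 ± 0.481 CPM per kilobase in Chat-pos and 0.222 ± 0.443 in Chat-neg, on 29 counts. Hoxb4, Hoxb3, Hoxb2 and Hoxb1 had 1 to 13 counts each in all 8 libraries, and Hoxb13, at the far end, had 0. A count of 0 allows at most 1.24 CPM in the deepest library, Chat-pos replicate 4.

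**Figure D2:**
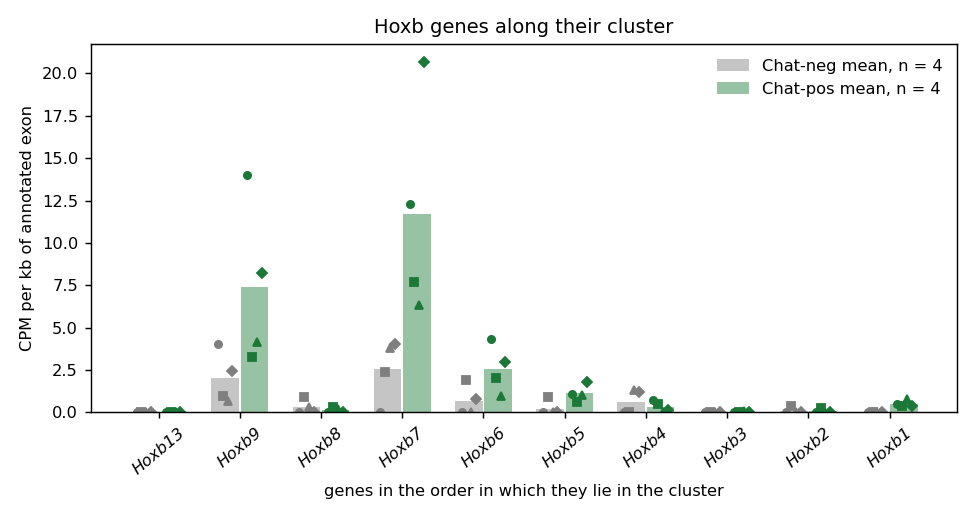
Bars give the mean level of each Hoxb gene in CPM per kilobase of annotated exon (y axis) in Chat-neg and Chat-pos, with 1 point per library, in the order of the genes on the chromosome (x axis). Hoxb9 and Hoxb7 stand out in Chat-pos, at 7.4 and 11.7, with Hoxb8 at 0.128 between them.

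The Hox clusters can be set side by side by their summed counts. All rows of the Hoxb cluster together held 42 Chat-neg counts and 416 Chat-pos counts, so that Chat-neg had 9.17% of them, while it had 24.4% of all scaled counts. Hoxb7 and Hoxb9, with 170 and 161 counts, make up most of this sum, so it largely restates them. The Hoxa cluster held 465 counts in all, against 458 for the Hoxb cluster, and 26.0% of the Hoxa counts were in Chat-neg. Summed levels of the Hoxb cluster were 10.4, 17.3, 12.6 and 18.7 CPM for Chat-neg libraries and 69.6, 36.5, 28.3 and 65.4 CPM in Chat-pos, and the groups did not overlap. Those of the Hoxa cluster were 72.5, 37.0, 39.6 and 57.5 CPM across Chat-neg libraries and 26.9, 56.3, 32.5 and 42.2 CPM across Chat-pos libraries, and the groups overlapped. These sums are given without a test, and the difference between the clusters was not tested. The Hoxc and Hoxd clusters had 16 and 30 counts.

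Of 41 other Hox rows, 3 passed the filter and 0 were called in either direction by edgeR or limma-voom, with 0 at an unadjusted p under 0.05, and DESeq2 gave none of the 3 an adjusted p. Hoxa5 was at 14.7 ± 11.6 CPM in Chat-neg and 7.41 ± 5.05 CPM in Chat-pos (log2 difference -0.60 ± 0.57, edgeR adjusted p = 0.607). Hoxa9, the Hoxa counterpart of Hoxb9, was at 8.59 ± 4.2 and 9.2 ± 2.73 CPM (0.19 ± 0.53, edgeR adjusted p = 0.893), a sign that turned when replicate 3 of Chat-neg or replicate 2 of Chat-pos was left out. The noncoding Hoxaas3 stood at 13.1 ± 7.15 and 13.3 ± 4.95 CPM (-0.04 ± 0.46, edgeR adjusted p = 0.98), with the sign turning in several settings. Whether Hoxb9 and Hoxa9 differ from each other in their response was not tested.

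Osr2 lies on chromosome 15 (chr15:35296098-35303305, plus strand) and had the most counts of the 9 genes, 770. It was at 20.7, 40.8, 30.4 and 45.1 CPM across Chat-neg libraries and 93.5, 73, 60.4 and 91.5 CPM across Chat-pos libraries. The 20.7 CPM of Chat-neg replicate 1 is 2 counts. Every Chat-pos library was above every Chat-neg library, and Chat-pos replicates 1 and 4 were the highest. The means were 34.2 ± 10.9 and 79.6 ± 15.8 CPM, with a log2 difference of 1.08 ± 0.25 (edgeR adjusted p = 0.0082). With each library left out in turn, 7 of 8 fits kept the call, which was lost without Chat-neg replicate 3 (0.98, edgeR adjusted p = 0.0513). Osr1, the other odd-skipped gene, had 3 counts.

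Onecut2 lies on chromosome 18 (chr18:64340020-64400987, plus strand). It was at 104, 70.4, 101 and 114 CPM across Chat-neg libraries and 47, 53.7, 66.4 and 43.1 CPM across Chat-pos libraries. The 104 CPM of Chat-neg replicate 1 is 10 counts. Every Chat-pos library was below every Chat-neg library, with Chat-neg replicate 2 and Chat-pos replicate 3 nearest to each other. The means were 97.2 ± 18.6 and 52.5 ± 10.2 CPM, with a log2 difference of -0.90 ± 0.23 (edgeR adjusted p = 0.0162). The call did not survive leaving out Chat-neg replicate 3 (-0.84, edgeR adjusted p = 0.0735), its replicate 4 (-0.77, 0.0914) or Chat-pos replicate 4 (-0.80, 0.058). With no filter on low counts it was lost too (-0.68, edgeR adjusted p = 0.219), in a fit that shifted the median of the tested genes to 0.18. Onecut2 has 16.23 kilobases of annotated exon, and subtracting the receptor-gene read density from all genes left it at -0.82 (edgeR adjusted p = 0.0257). The enteroendocrine marker Chgb was at 334 CPM in Chat-neg replicate 4 and at most 8.64 CPM in the other 7 libraries. Onecut1 and Onecut3 had 2 and 4 counts.

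Osr2 and Onecut2 moved in opposite directions in the scaled fits. The shift of Osr2 relative to Onecut2 can be read within each library and so without any scaling between libraries. Such a share does not show which of the genes changed, or in which direction. Osr2 made up 16.7%, 36.7%, 23.1% and 28.4% of the counts on the pair in the Chat-neg libraries, against 66.5%, 57.6%, 47.6% and 68.0% in the Chat-pos libraries. The groups did not overlap. The nearest values were those of Chat-neg replicate 2 (33 of 90 counts; 95% exact Clopper-Pearson interval 26.8% to 47.5%) and Chat-pos replicate 3 (130 of 273 counts; 41.6% to 53.7%), whose counting intervals overlap. The share in Chat-neg replicate 1 rests on 2 of 12 counts, and its interval (2.09% to 48.4%) also overlaps that of Chat-pos replicate 3. These shares restate a pair chosen with its results known and have no test.

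**Figure D3:**
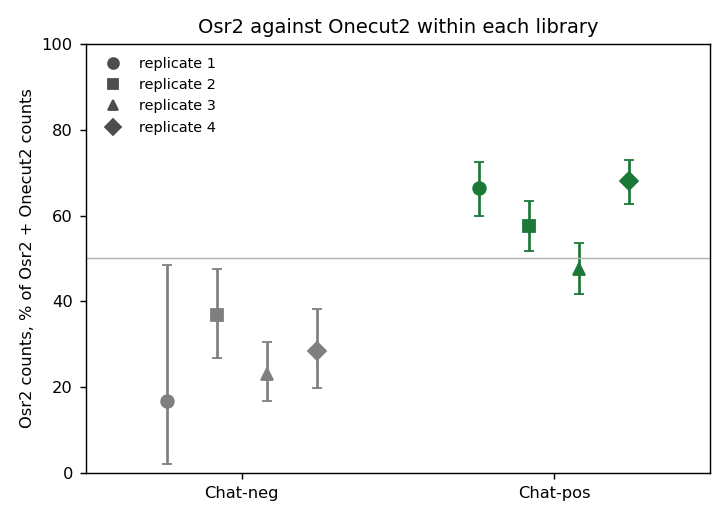
The y axis gives Osr2 counts as a percent of Osr2 plus Onecut2 counts in each library, with 95% exact binomial intervals that cover counting error only. Chat-neg libraries lie at 16.7% to 36.7% and Chat-pos libraries at 47.6% to 68.0%.

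Gata4 and Gata6 encode zinc-finger factors that bind the same core sequence. Gata4 (chr14:63198922-63271692, minus strand) was at 10.4, 14.8, 14.3 and 10.9 CPM across Chat-neg libraries and 4.89, 11.4, 13 and 9.11 CPM across Chat-pos libraries. The groups overlapped, and Chat-pos replicate 1 was the lowest. Its log2 difference was -0.47 ± 0.46 (12.6 ± 2.3 against 9.61 ± 3.53 CPM, edgeR adjusted p = 0.619). Gata6 (chr18:11052064-11085635, plus strand) was at 51.8, 43.2, 45.5 and 23.3 CPM across Chat-neg libraries and 40.9, 35.2, 26.0 and 22.4 CPM across Chat-pos libraries, again with overlap. Its log2 difference was -0.37 ± 0.29 (41.0 ± 12.3 against 31.1 ± 8.48 CPM, edgeR adjusted p = 0.53). Gata4 rested on 121 counts, so that a change of the size seen in Onecut2 lay about 1 standard error from its estimate. Gata5, the third GATA gene of the gut, stood at 52.4 ± 24 and 99.1 ± 17.1 CPM without overlap (0.71 ± 0.24, edgeR adjusted p = 0.075), and passed without Chat-neg replicate 3 (0.0492) or with the receptor-gene read density subtracted (0.0415). Gata1, Gata2 and Gata3 had 6 to 10 counts each. Of the 7 other genes of these families, Gata5 was the 1 tested, and 0 were called by edgeR, DESeq2 or limma-voom, with 1 at an unadjusted p under 0.05.

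Pdx1 (chr5:147269959-147275848, plus strand) had 0, 4, 5 and 0 counts among Chat-neg libraries and 2, 4, 2 and 3 among Chat-pos libraries. That is 2.29 ± 2.66 and 1.29 ± 0.345 CPM, and without the filter a log2 difference of -0.98 ± 1.11 (edgeR adjusted p = 0.637). A difference in Pdx1 was not detectable at this depth.

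Levels of different genes can be set side by side per kilobase of exon. In Chat-neg the order was Osr2 (9.45 ± 3.01 CPM per kilobase), Gata6 (6.30 ± 1.89), Onecut2 (5.98 ± 1.15), Gata4 (3.23 ± 0.59), Hoxb7 (2.56 ± 1.86), Hoxb9 (2.01 ± 1.55), Pdx1 (1.06 ± 1.23), Hoxb6 (0.67 ± 0.893) and Hoxb8 (0.314 ± 0.442). Only the step from Onecut2 to Gata4 exceeded the sum of the SDs of the neighbours. In Chat-pos the order was Osr2 (22.0 ± 4.36), Hoxb7 (11.7 ± 6.47), Hoxb9 (7.4 ± 4.9), Gata6 (4.78 ± 1.3), Onecut2 (3.24 ± 0.63), Hoxb6 (2.57 ± 1.45), Gata4 (2.46 ± 0.905), Pdx1 (0.597 ± 0.16) and Hoxb8 (0.128 ± 0.161), and only the steps from Gata4 to Pdx1 and from Pdx1 to Hoxb8 exceeded that sum. Hoxb7 and Hoxb9 thus stood below Gata4 in Chat-neg and above Gata6 in Chat-pos, by their means. The read density on the receptor genes, as CPM per kilobase before scaling, was 0.771 in Chat-neg replicate 1, 0.0721 to 0.147 in the other Chat-neg libraries and 0.0281 to 0.054 in Chat-pos.

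Within the Chat-pos group, several members divided the libraries into the same pairs. Hoxb6, Hoxb7, Hoxb9 and Osr2 were each higher in replicates 1 and 4 than in replicates 2 and 3, and Onecut2 and Gata4 were each lower there. Hoxb8, on 3 Chat-pos counts, was also lower in replicates 1 and 4, unlike the other Hoxb members. Gata6 and Pdx1 did not follow this split. The share of all genes that divide the libraries in this way was not determined, so the split is a description. The same split divides the libraries with many Paneth cell transcripts (replicates 2 and 3) from the others. With both of these left out, the log2 differences were 2.41 for Hoxb7, 3.08 for Hoxb9, 1.41 for Osr2 and -1.01 for Onecut2, and the first 3 passed (edgeR adjusted p = 0.0102, 0.00248 and 0.00677). Onecut2 did not pass there (0.0581).

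Markers of other cell types were read in the same libraries. The 10 fibroblast and smooth muscle markers, of which none had enough counts to be tested, summed to 5.06 to 41.4 CPM in Chat-neg and 3.67 to 9.68 CPM in Chat-pos. Pdgfra and Col1a1 led in level, through 20.7 and 10.4 CPM in Chat-neg replicate 1, on 12 and 6 counts over all libraries. Both had lower means in Chat-pos (6.4 ± 9.57 against 0.666 ± 1.05 CPM, and 3.5 ± 4.58 against 0.207 ± 0.414 CPM). Dcn, with the most counts of the list, 20, went the other way, from 0 in every Chat-neg library to 2.31 ± 1.53 CPM in Chat-pos. The summed level of the 4 Hoxb members was 8.43 to 14.0 CPM in the Chat-neg libraries and 22.8 to 63.5 CPM in the Chat-pos libraries. The 6 endothelial markers, led by Plvap and Vwf, summed to 11.8 to 41.4 and 11.9 to 16.7 CPM. Enterocyte markers (8, led by Apoa1 and Fabp2) summed to 3360 to 7660 CPM in Chat-neg and 5410 to 8400 CPM in Chat-pos, and goblet markers (7, led by Zg16 and Tff3) to 456 to 5400 and 302 to 1540 CPM. Of the 7 goblet markers, 6 lay below 0 (median log2 difference -2.01), and Clca1 was lower in Chat-pos (58.5 ± 44.9 against 7.98 ± 4.13 CPM, -3.06 ± 0.55, edgeR adjusted p = 0.00978). DESeq2 called 2 goblet markers lower and limma-voom 3. Enteroendocrine markers (10, led by Sct and Chgb, with Pax4 at 0) summed to 528 to 1360 and 1190 to 1870 CPM, most of it Sct (763 ± 204 and 1430 ± 294 CPM), which was higher in Chat-pos (0.85 ± 0.22, edgeR adjusted p = 0.0155). Stem and cycling markers (8, led by Olfm4 and Lgr5) summed to 119 to 993 and 151 to 1120 CPM, and lymphocyte markers (8, led by Gzma and Ccl5) to 193 to 438 and 10.4 to 414 CPM. The 414 CPM was that of Chat-pos replicate 2, while Chat-pos replicates 1, 3 and 4 stood at 10.4, 13.9 and 11.2 CPM, below every Chat-neg library. All 5 lymphocyte markers tested lay below 0 (median -1.84), with 0 called by edgeR, 0 by DESeq2, 0 at an unadjusted p under 0.05 and 2 called lower by limma-voom. The part of these cells in the members' values was not tested.

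Among 19 other transcription factors of the gut epithelium, of which 13 were tested, Cdx1 was the 1 called higher. Cdx1 is a caudal-type homeobox gene of the intestine. It went from 173 ± 46.9 to 322 ± 32.4 CPM without overlap (log2 difference 0.80 ± 0.21, edgeR adjusted p = 0.0153). Leaving out replicate 2 of Chat-neg (0.0563) or of Chat-pos (0.0652) ended the call. Klf4 stood at 121 ± 31.9 and 190 ± 12.4 CPM (0.55 ± 0.20, edgeR adjusted p = 0.103). Nr5a2, a nuclear receptor, stood at 27.9 ± 17 and 11.4 ± 4.35 CPM with overlap (-0.98 ± 0.44, edgeR adjusted p = 0.197). Of the 13 that were tested, 1 was higher and 0 lower (edgeR; also 1 and 0 with DESeq2 and limma-voom, and 2 and 1 at an unadjusted p under 0.05), with a median of -0.04 against -0.02 over all genes.

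Genes known to differ along the small intestine were also read from the same fit. Of 12 genes known to be high in the ileum, 7 were tested and 0 were called in either direction by edgeR, DESeq2 or limma-voom, with 0 at an unadjusted p under 0.05 and a median log2 difference of -0.11. Fabp6, the ileal bile acid-binding protein, varied from 512 to 2650 CPM in Chat-neg and from 180 to 1320 CPM in Chat-pos (-0.58 ± 0.85, edgeR adjusted p = 0.774), and turned to 0.31 without Chat-neg replicate 1. Slc51a, a bile acid exporter subunit, stood at -0.22 ± 0.57 (edgeR adjusted p = 0.886), and Nr1h4, the bile acid receptor, at -0.23 ± 0.51 (0.85). Of 15 genes known to be high in the proximal small intestine, 11 were tested and 0 were called by edgeR or limma-voom in either direction, with 1 higher at an unadjusted p under 0.05, 1 higher by DESeq2 and a median of -0.25. Lct, which encodes lactase, stood at -0.54 ± 0.28 (edgeR adjusted p = 0.282), Khk, a fructose kinase, at -0.46 ± 0.24 (0.285), and Adh1, an alcohol dehydrogenase, at 0.57 ± 0.22 (0.131). Fabp6, with a standard error of 0.85, was too variable between libraries for a change of the size of Onecut2 to be detectable.

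**Figure D4:**
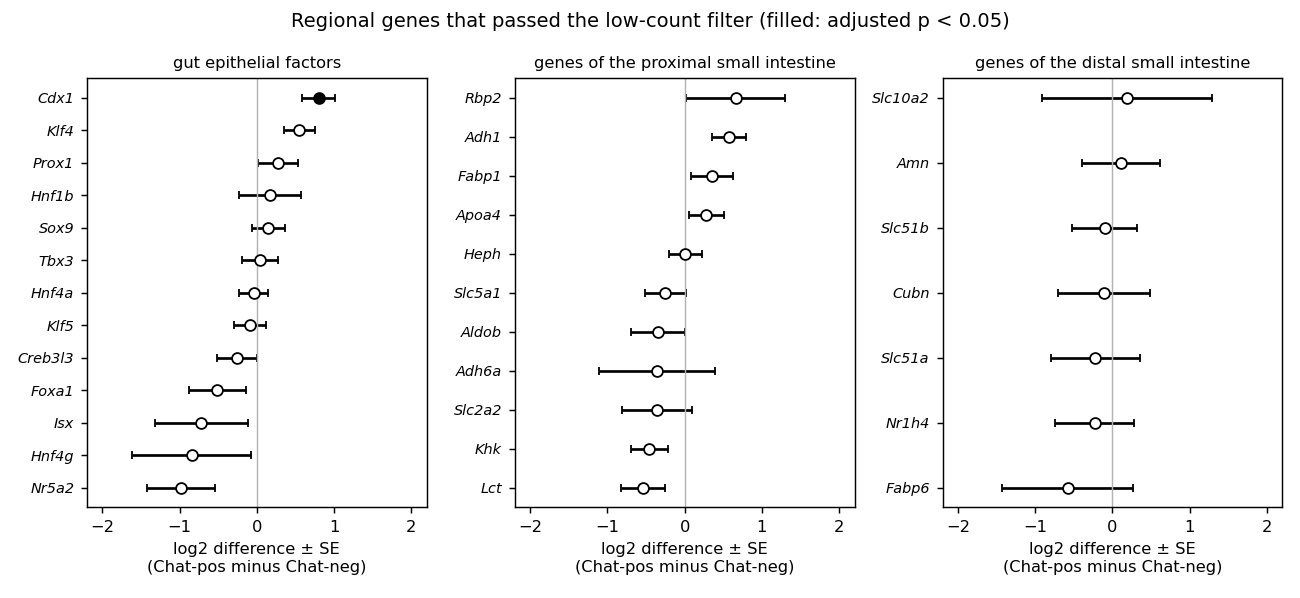
Points give the log2 difference (Chat-pos minus Chat-neg, x axis) with its SE for each tested gene of 3 lists. Cdx1, at 0.80, is the filled point, which marks an adjusted p under 0.05, and the ileal genes lie on both sides of 0.

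Of 8 colon genes, 2 were tested and 0 were called by edgeR, DESeq2 or limma-voom, with 0 at an unadjusted p under 0.05. They were Car4 (-0.38 ± 1.07, edgeR adjusted p = 0.895) and B4galnt2 (-0.23 ± 0.32, 0.746), and Insl5 had no counts. Stomach genes summed to 6.75 to 51.8 CPM in Chat-neg and 1.66 to 15.0 CPM in Chat-pos, and none of the 8 could be tested. Of 11 partner genes of HOX and GATA proteins, 4 were tested and 0 were called by edgeR or limma-voom, with 0 at an unadjusted p under 0.05 and 0 called by DESeq2, which gave Zfpm1 and Pbx2 no adjusted p. All 4 lay below 0 (median -0.38). Zfpm1, a GATA cofactor, stood at -0.60 ± 0.59, and the TALE homeobox genes Pbx2 and Pknox1 at -0.50 ± 0.52 and -0.26 ± 0.40 (edgeR adjusted p = 0.623, 0.642 and 0.771). The sign of Pknox1 turned without Chat-neg replicate 4 (0.08) and without Chat-pos replicates 2 and 3 (0.03). Of 24 Polycomb, MLL and retinoic acid genes that act on Hox loci, 16 were tested and Aldh1a1, a retinaldehyde dehydrogenase, was lower (46.1 ± 25.8 against 24.4 ± 9.34 CPM, -1.10 ± 0.32, edgeR adjusted p = 0.039). Its groups overlapped, and the call ended on leaving out replicate 2 (0.279) or 3 (0.17) of Chat-neg or replicate 1 (0.0899), 2 (0.111) or 3 (0.0672) of Chat-pos, and with DESeq2 (0.0619), the replicate block (-0.98, 0.109), no filter on low counts (-0.90, 0.125) or both Paneth-rich libraries left out (-0.90, 0.226). Over this list, 2 genes lay higher and 4 lower at an unadjusted p under 0.05, DESeq2 called 0 in either direction, and limma-voom called 0 higher and 2 lower, Aldh1a1 and Men1. Men1, which encodes menin of the MLL complex, stood at -1.35 ± 0.47 (edgeR adjusted p = 0.0796; limma-voom -1.37, adjusted p = 0.0282), and Rxra, a retinoid receptor, at -1.16 ± 0.45 (0.131).

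The genes whose profiles over the 8 libraries were nearest to those of the members were found by the mean absolute difference of centred log2(CPM + 1) values. Nearest to Osr2 were Dcp1b (0.123) and Tmem176a (0.138), at a median of 0.723 over all genes tested. Hoxb7 was nearest to Epgn (0.204) and Themis2 (0.209), Hoxb9 to Krtap3-1 (0.318) and Cdh26 (0.374), and Onecut2 to 2610008E11Rik (0.139) and Lpp (0.145). Those of Gata4 were Clpb (0.158) and Mrpl2 (0.168), and those of Gata6 were Nf2 (0.0958) and Hspa4 (0.113). Krtap3-1, at 525, 222, 167 and 349 CPM in Chat-pos replicates 1 to 4 and 30.4 to 112 CPM in Chat-neg, had the order of Hoxb9 in Chat-pos with its replicates 2 and 3 exchanged. The genes compared share library and depth, so this likeness is a description.

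**Figure D5:**
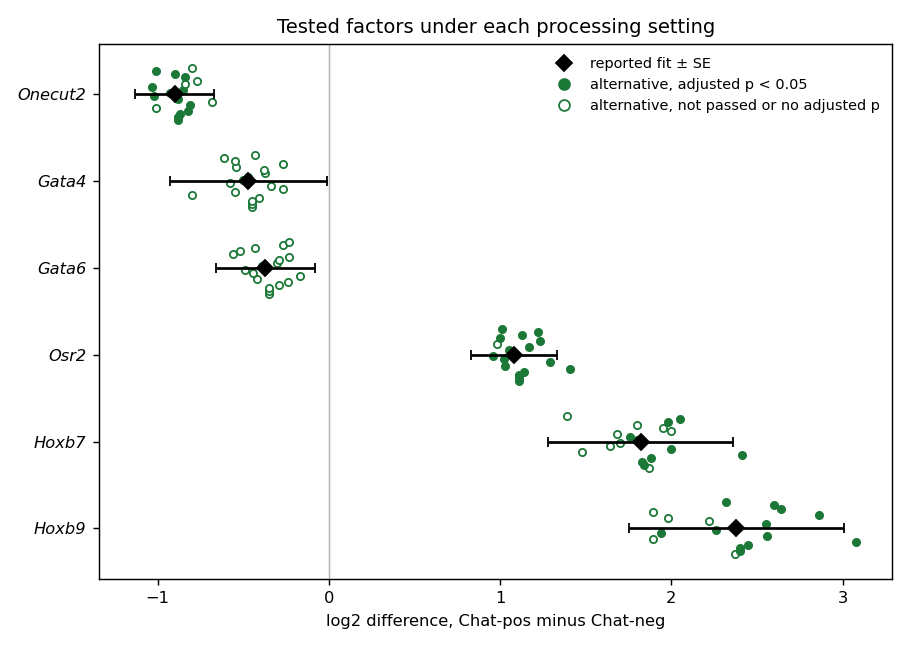
The x axis gives the log2 difference (Chat-pos minus Chat-neg) of the 6 tested factors in the reported fit with its SE (diamonds) and in each alternative setting (circles, filled where the adjusted p was under 0.05). Hoxb9, Hoxb7 and Osr2 stay above 0 and Onecut2, Gata4 and Gata6 below 0 in all settings, while the filled circles show which of them kept a call.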

How the data were processed

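RNA from sorted small intestinal tuft cells was sequenced in 4 Chat-neg and 4 Chat-pos libraries. The authors deposited raw read counts per gene symbol, and the submitters' processing notes name the build GRCm38. No aligner, counter, annotation or strand setting is given in the sources used here. Rows without a gene name held 67.8% to 88.4% of the counts in the Chat-neg libraries and 58.6% to 64.6% in the Chat-pos libraries. They were left out, so the share left out was higher in every Chat-neg library than in any Chat-pos library. The 229 rows that repeat 114 symbols were summed. The members and all gene lists were chosen with earlier results of these data known. Counts were fitted over the whole table with edgeR 4.0.16 (TMM, filterByExpr, robust quasi-likelihood test, R 4.3.3), with p-values adjusted by Benjamini-Hochberg over 8919 genes and called under 0.05. CPM divides counts by TMM-scaled named counts, and exon lengths are from GENCODE M21. The fitting code was tested on 1 simulated data set with the same dispersion for all genes. Of 50 genes each changed 1.5-fold, 2-fold, 4-fold and 8-fold, it recovered 4%, 26%, 86% and 82%, with 4 false calls among 103. A gene that was not called may thus still differ by 2-fold. DESeq2 1.42.0, limma 3.58.1 (voom), other scalings and filters, a replicate block and left-out libraries were alternatives. Besides the members, the text names the tested Hox genes and the 3 tested genes with the smallest p in each list (2 in lists under 8 members). The 2 most abundant markers of each cell type, the sort genes and the 2 nearest profiles of members with at least 100 counts are named too. The untested relatives, Clca1, Dcn, Insl5 and Pax4 were added after their values were seen. Some genes are not reported here and were left out of the lists. PCR reads without molecular identifiers are not independent molecules, so intervals and floors cover counting error only.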

Additional observations from a re-analysis of the deposited data

How the results depend on the processing

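The log2 differences of the 6 tested members kept their sign in all the alternatives listed in the processing account, but the calls did not. The members called higher numbered 3 in the reported fit, 1 with DESeq2, 1 with limma-voom, 2 with the replicate block, 2 with total count scaling and 0 to 3 when a library was left out. DESeq2 gave Hoxb7 and Hoxb9 no adjusted p (unadjusted p = 0.00433 and 0.00112 from its Wald test). The member called lower was 1, against 0 with no filter on low counts, 0 without both Chat-pos libraries rich in Paneth transcripts and 0 to 1 when a library was left out. The cause was not tested. Whether the replicate numbers pair the libraries is not known, since the labels do not give the animals. Same-numbered libraries correlated at -0.0232 to 0.0512 in their deviations from the group means. Replicates 1 and 2 of Chat-neg correlated best with their own number. The highest correlation between any Chat-neg and Chat-pos library was 0.095, so these values are too near 0 to decide on pairing. Among genes that were not called, the sign of Hoxaas3 turned with no filter (0.16), limma-voom (0.14), the replicate block (0.04), background subtraction (0.02) and without both Paneth-rich libraries (0.28), that of Nr1h4 with the replicate block (0.08), and those of B4galnt2 (0.20), Car4 (0.14) and Pknox1 (0.03) without both Paneth-rich libraries; the cause was not tested. With a library left out, log2 differences ranged from -1.41 to 0.42 for Car4, -0.92 to 0.31 for Fabp6, -0.13 to 0.73 for Hoxa9, -0.37 to 0.34 for Hoxaas3, -0.60 to 0.33 for Nr1h4, -0.61 to 0.08 for Pknox1 and -0.52 to 0.06 for Slc51a. The median over the genes tested was -0.14 with total count scaling and 0.18 with no filter, against -0.02. Over all genes, 323 were called higher and 256 lower, against 344 and 143 with no filter, 240 and 86 without both Paneth-rich libraries, 468 and 212 with background subtracted, and 138 and 110 without Chat-neg replicate 2. The latter were the fewest when 1 library was dropped. Chat-neg replicate 1, with 19 counts on the 9 members, limits what any value of it shows.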
